A study of Mus musculus with 36 samples.

Results

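Gene expression was compared between 6 RNA-sequencing libraries, of 36 in the series, that were made from a single wild-type mouse embryonic fibroblast line, E1.5, grown at high or at low cell density. They are the libraries whose titles name a high or a low density: 3 at each, of which 1 was left untreated, 1 received pI:pC, the synthetic RNA duplex poly(I:C), for 4 h and 1 received antimycin with oligomycin (AO) for 4 h. High and low density were paired by treatment, 3 libraries against 3. The drugs of the AO mixture stop respiration, antimycin at complex III and oligomycin at the ATP synthase. The series as a whole was built around an N129D knock-in of Tbk1, a kinase that activates the transcription factor IRF3, in embryonic fibroblast lines of 3 genotypes. The 6 libraries here all carry the wt/wt genotype, and the cells were cultured in DMEM. A further 3 libraries of line E1.5, 1 per treatment, carry no density label. They entered the model as a level of their own and are described beside the others. E1.5 is 1 line, so the 3 libraries of a density are not separate embryos. Each density and treatment has 1 library, so there is no spread between replicate libraries to measure. The p-values instead rest on how far density differences varied between treatments in this line, the unlabelled libraries included. A density difference that depends on treatment enters that spread. The labels do not state how many cells were plated.

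Fibroblasts that touch each other slow their division, a behaviour called contact inhibition. The Hippo kinases then keep the co-activators YAP and TAZ out of the nucleus, where they would otherwise act with TEAD factors, and a cell with less spread and less tension also draws less on the actin-controlled factors MRTF and SRF. Fibroblasts are also sentinels for viruses: double-stranded RNA is sensed by the RIG-I-like receptors and TLR3, TBK1 and IRF3 switch on interferon beta, and secreted interferon acts on neighbouring cells through its receptor and STAT factors to induce interferon-stimulated genes.

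The libraries held 16474021 to 22756884 counts at high density, 5391401 to 6307971 at low density and 5213079 to 7948244 without a density label. Depth thus moved with density, and any unlabelled difference in handling between both sets of cultures cannot be told apart from density. Line E1.5 carried fibroblast markers in every library (12 markers summed to 3582 to 7096 CPM at high and 3844 to 7373 CPM at low density, where CPM is the count scaled to a common library total), whereas macrophage markers summed to 2.97 to 4.53 and 3.65 to 3.73 CPM, and Adgre1 and Tyrobp were at 0 in all 6. Erythroid markers reached at most 0.355 CPM. Smooth muscle markers, which fibroblasts also express, summed to 1645 to 2357 CPM at high and 2556 to 4158 CPM at low density. In bulk RNA a change in the number of cells of a type and a change in RNA per cell cannot be told apart.

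A large part of the transcriptome differed between densities. Of 12229 genes tested, 2083 passed (17%; edgeR quasi-likelihood F test with treatment in the model, Benjamini-Hochberg adjusted p under 0.05), 1054 of them higher at high density (8.62%) and 1029 lower (8.41%). The larger differences were mostly on the high side: 319 genes were higher by at least 2-fold and 40 were lower by as much, and at 4-fold the numbers were 105 and 5. Of the 105 genes, 40 belonged to a list of 73 interferon-stimulated genes. A total of 2065 of the 2083 kept 1 direction under all 3 treatments. The mean of the unlabelled libraries lay between high and low for 997 of the 1054 higher and 983 of the 1029 lower genes, and for 1154 of the 2083 it did so under each treatment. The calls rest on the pairing: with treatment left out of the model 31 genes passed. With every library thinned to the same depth 1771 genes passed. The counts for gene lists given below are to be read beside the shares of 8.62% higher and 8.41% lower.

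**Figure D1:**
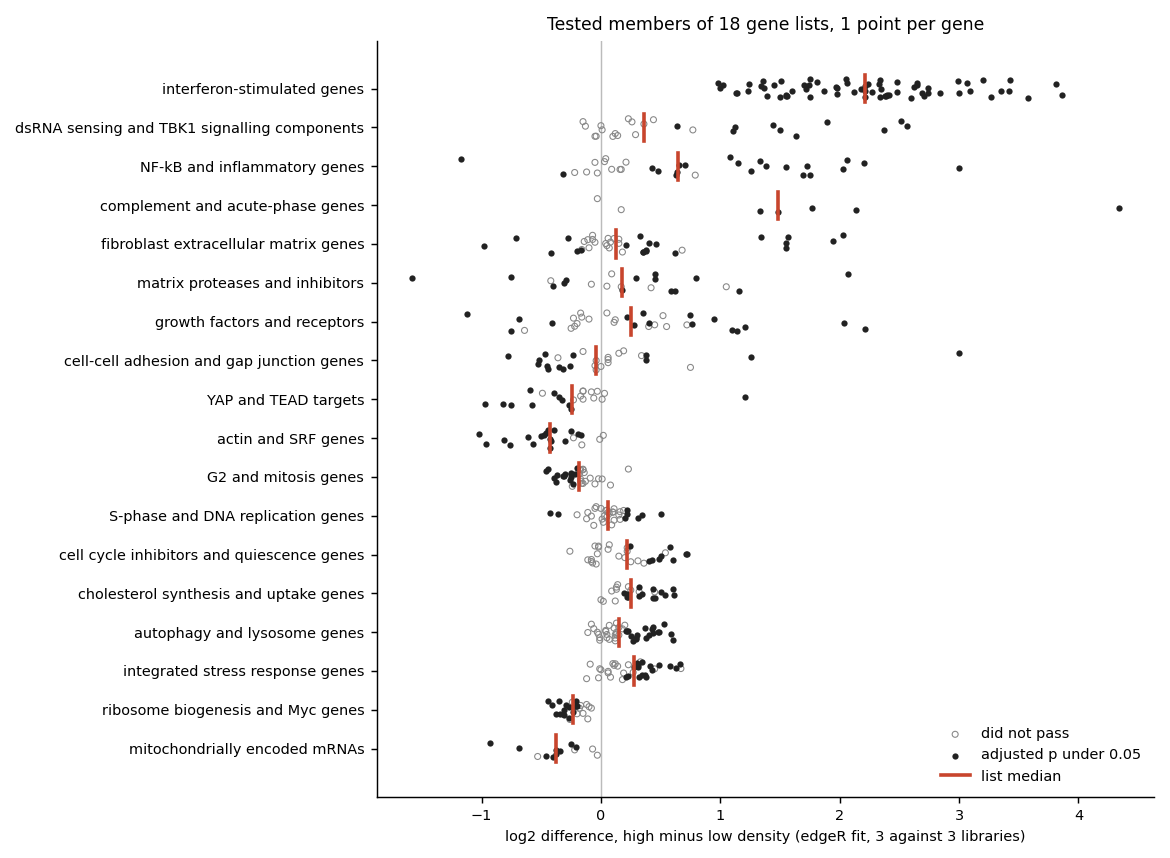
Log2 difference between high and low density for the tested members of 18 gene lists, 1 point per gene (filled, adjusted p under 0.05; open, did not pass), with the list median as a red bar. All 68 tested interferon-stimulated genes lie to the right of 0, and 18 of 22 actin and SRF genes are filled points to the left of 0.

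Interferon-stimulated genes, the antiviral effectors, antigen-presentation genes and regulators that interferon induces, were higher at high density as a group. Of 73 listed, 68 were tested and all 68 passed as higher, with a median log2 difference of 2.21 beside 0.01 over all genes tested and a range of 0.98 to 3.86. The median was 1.91 in untreated cells, 2.34 with poly(I:C) and 1.91 with AO, so the difference was there without any stimulus. For 37 of the 68 every high-density library lay above every low-density one, treatments included, beside 13.3% of all genes tested without overlap. The unlabelled mean lay between high and low for 68 of 68. It also did so for 997 of all 1054 higher genes, so this position was not particular to the list. The members that failed the filter on low counts were Oas2, Oas3, Ifi44l, Ifi27l2a and Ifitm1. The count was 66 to 71 under the other settings, and 5 without the pairing by treatment.

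Genes of transcription factors that carry the interferon signal were among those higher at high density. Irf7, which encodes the factor that amplifies type I interferon production (chromosome 7, 141262706 to 141266481, minus strand of GRCm38), was read at 62.9 CPM without treatment, 211 CPM with poly(I:C) and 72.1 CPM with AO at high density, and at 10, 38.8 and 13.1 CPM in the same order at low density. The lowest high-density library was thus above the highest low-density one, and the unlabelled libraries lay between at 25.9, 92.2 and 27.5 CPM. Its log2 difference was 2.51 ± 0.08 (SE; edgeR adjusted p = 9.37e-09). Stat2 and Irf9, partners in the factor that interferon activates, were higher by 1.63 ± 0.08 and 1.11 ± 0.08 on the log2 scale.

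Usp18, the protease that removes ISG15 from proteins and restrains interferon receptor signalling (chromosome 6, 121245906 to 121270917), stood at 112, 338 and 133 CPM at high density and at 20.9, 62.5 and 21.9 CPM at low density. Isg15 itself, a ubiquitin-like protein coupled to viral and host proteins (chromosome 4, 156199424 to 156200818), stood at 252, 580 and 283 CPM against 79.8, 188 and 81.2 CPM. For both genes the untreated high-density library exceeded the low-density library that had received poly(I:C). The log2 differences were 2.48 ± 0.08 for Usp18 and 1.70 ± 0.07 for Isg15 (adjusted p = 9.37e-09 and 2.79e-08).

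Ifit3, an antiviral protein that acts with IFIT1 on foreign RNA (chromosome 19, 34583531 to 34588731), stood at 108, 1095 and 89.7 CPM at high density against 18.2, 165 and 16 CPM at low density. These groups overlapped, because poly(I:C) carried the low-density cells above the untreated high-density cells, while within each treatment the high-density library was higher. The log2 difference was 2.62 ± 0.10 (adjusted p = 9.52e-09), although reads shared with its near-identical copy Ifit3b make the level of either less certain. Ifi44 (2.84 ± 0.10), Oasl2, of the oligoadenylate synthetase family (2.65 ± 0.10), and the guanylate-binding protein gene Gbp3 (2.39 ± 0.09) differed to a like degree. Within the rule for named genes, Gbp5 was the member with the largest log2 difference, 3.81 ± 0.23, followed by Mx1, which encodes a GTPase that blocks influenza viruses, at 3.58 ± 0.30. Mx1 stood at 3.84, 110 and 6.32 CPM at high and at 1.10, 6.27 and 1.26 CPM at low density. Iigp1, Tgtp2 and Gbp6, GTPases that attack the vacuoles of intracellular parasites, were higher by 3.43 ± 0.16, 3.35 ± 0.17 and 3.27 ± 0.22.

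**Figure D2:**
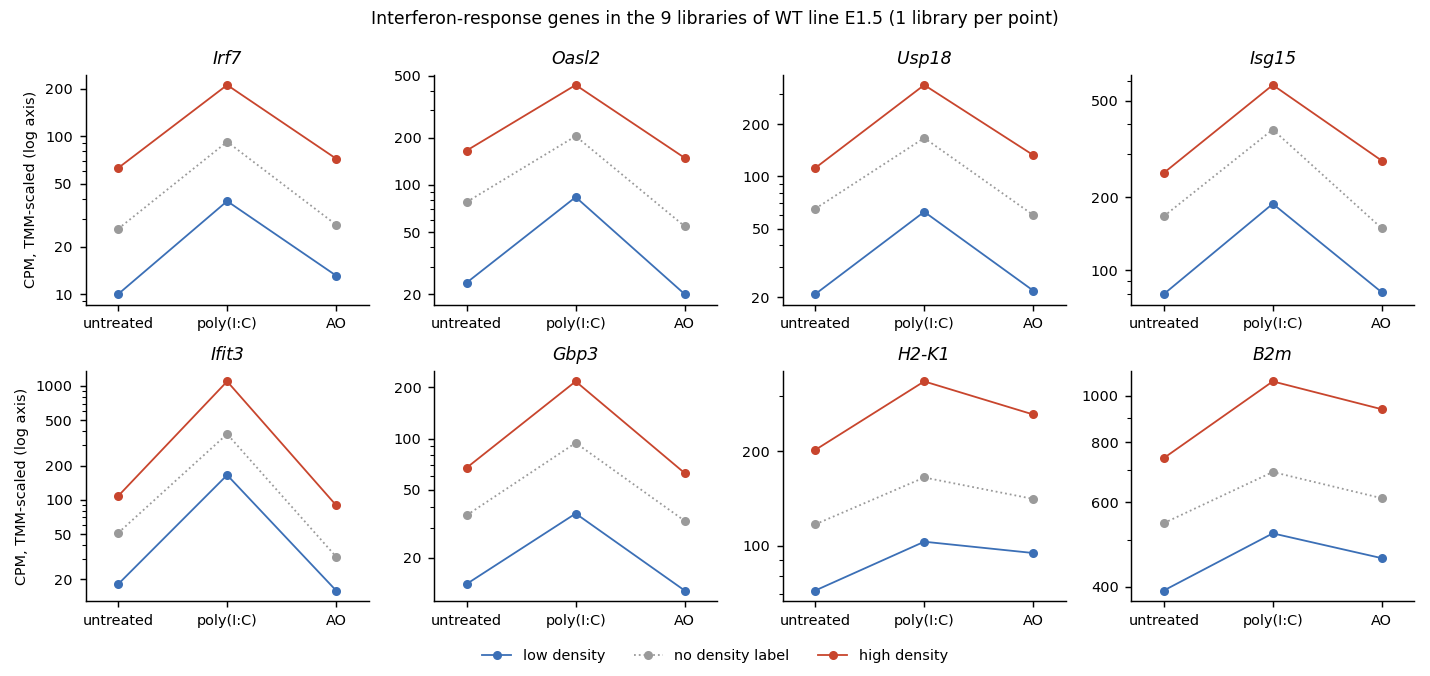
CPM (log axis) of 8 interferon-response genes in each library of line E1.5 under 3 treatments; colours mark low density, no density label and high density, and a line joins libraries of 1 density. In every panel the high-density library is above and the low-density library below at each treatment, as for Irf7 (62.9 against 10 CPM untreated).

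The antigen-presentation members of the list are given here after their values were seen. The class I heavy chain gene H2-K1 stood at 202, 334 and 262 CPM at high against 72.0, 103 and 94.8 CPM at low density, and B2m, the light chain, at 742, 1072 and 938 against 393, 517 and 459 CPM. Neither overlapped between densities. The log2 differences were 1.55 ± 0.07 for H2-K1, 1.39 ± 0.06 for H2-D1 and 1.0 ± 0.05 for B2m (adjusted p = 2.99e-08, 4.93e-08 and 1.06e-07). The peptide transporter gene Tap1, the loading factor gene Tapbp and the class I transactivator gene Nlrc5 were higher by 2.48 ± 0.14, 1.56 ± 0.08 and 2.18 ± 0.19. H2 genes are closely alike, so their single values are less certain.

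The summed level of the 73 listed genes placed these cultures against the rest of the series. Untreated, it was 5678 CPM at high density, 3491 CPM without a label and 1909 CPM at low density. The 3 wild-type lines without a density label ranged from 3006 to 3491 CPM, and both density libraries lay outside that range. The lines homozygous for N129D ranged from 1030 to 1105 CPM and the heterozygous lines from 1399 to 7595 CPM, so the low-density wild-type library was above the homozygous lines. No test was made between these, since each density has 1 untreated library.

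Promoters of the interferon-stimulated genes held the core of the interferon-stimulated response element, the motif bound by IRFs and by the factor that interferon activates. The RefSeq promoter table (GRCm38.p6, 250 bases before to 50 after each start) held 54 of the 68 tested members, and 28 of the 54 (51.9%) carried GAAANNGAAA on either strand, a spelling chosen after the data were seen. The share was 3.68% over all 9363 tested genes in the table, 12.8% of the higher and 4.01% of the lower genes, and 9.97% of the higher genes outside the list. Its looser form AANNGAAA, which overlaps it, was in 83.3% of the members and 20.6% of all. Upstream windows of 130 bases are shown for 4 members picked because they hold the motif there, written 5′ to 3′ on the gene's strand with the motif, or its reverse complement, in capitals. They lie at chr4:156200819-156200948 for Isg15 (minus strand), chr19:34583399-34583528 for Ifit3, chr3:142559914-142560043 for 1 of the listed starts of Gbp3 and chr12:26456453-26456582 for Rsad2 (minus strand). In Isg15 3 matches overlap in a run, and in Gbp3 2 do. The same windows of Ifi44, Irf7, Oasl2, Xaf1 and the other start of Gbp3 held 0 matches, although these genes were higher too.
Isg15: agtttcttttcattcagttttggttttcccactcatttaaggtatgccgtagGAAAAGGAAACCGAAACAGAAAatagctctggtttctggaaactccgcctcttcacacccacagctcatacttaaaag
Ifit3: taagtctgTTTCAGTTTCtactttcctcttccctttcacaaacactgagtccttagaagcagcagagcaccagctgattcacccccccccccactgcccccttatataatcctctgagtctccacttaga
Gbp3: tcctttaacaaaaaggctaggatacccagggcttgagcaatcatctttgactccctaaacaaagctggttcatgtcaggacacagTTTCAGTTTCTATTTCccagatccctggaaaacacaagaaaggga
Rsad2: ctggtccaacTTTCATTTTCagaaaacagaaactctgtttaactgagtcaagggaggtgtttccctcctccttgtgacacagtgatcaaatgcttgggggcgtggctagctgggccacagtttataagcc
Rsad2 encodes viperin, an enzyme that makes a chain-terminating nucleotide, and its log2 difference was 2.41 ± 0.12. A match is a run of letters in the window and says nothing of binding in these cells.

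Sensors of double-stranded RNA were higher at high density, whereas the kinase gene Tbk1 and the adaptor gene Mavs did not pass. In the list of double-stranded RNA sensing and TBK1 signalling components 10 of 25 tested genes were higher and 0 lower, with a median of 0.36. The genes Ddx58 (RIG-I), Ifih1 (MDA5), Dhx58 (LGP2) and Tlr3 were higher by 1.5 ± 0.07, 1.12 ± 0.10, 2.37 ± 0.13 and 2.56 ± 0.23 on the log2 scale. Ddx58 stood at 162, 507 and 169 CPM at high and at 65.4, 173 and 54.3 CPM at low density. Irf7, Stat2, Irf9, Irf1 and Tmem173 (STING) were also among the 10, and interferon is known to induce most of them, so the lists are not independent. Tbk1, whose gene lies on chromosome 10 (121546455 to 121586787), stood at 45.2, 44.4 and 62.1 CPM against 46.3, 38.8 and 55.8 CPM. Its log2 difference of 0.10 ± 0.09 did not pass (adjusted p = 0.484). Irf3 differed by 0.14 ± 0.12 and the adaptor gene Mavs by 0.00 ± 0.12 (adjusted p = 0.475 and 0.999).

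The interferon genes themselves were read almost only under poly(I:C), and more at high density. Ifnb1, interferon beta, had 1, 700 and 2 counts at high density (untreated, poly(I:C), AO) and 0, 8 and 0 at low density. In the library total this made 42.5 CPM against 1.48 CPM under poly(I:C), a ratio of 28.6 with a 95% interval of 14.5 to 66.6 (exact, for counting error only, 1 library against 1). The unlabelled library lay between, with 173 counts or 21.8 CPM. Ifna4, an interferon alpha gene, had 397 counts at high and 3 at low density under poly(I:C), a ratio of 43.3 (14.7 to 211), and 0 in both untreated libraries. In untreated cells Ifnb1 was at or under a floor of 3 counts at both densities (0.132 CPM in the high-density library and 0.476 CPM in the low-density one), so no interferon difference was detectable there at this depth, although the interferon-stimulated genes differed. Ifnb1 and Ifna4 failed the filter on low counts and carry no test.

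**Figure D3:**
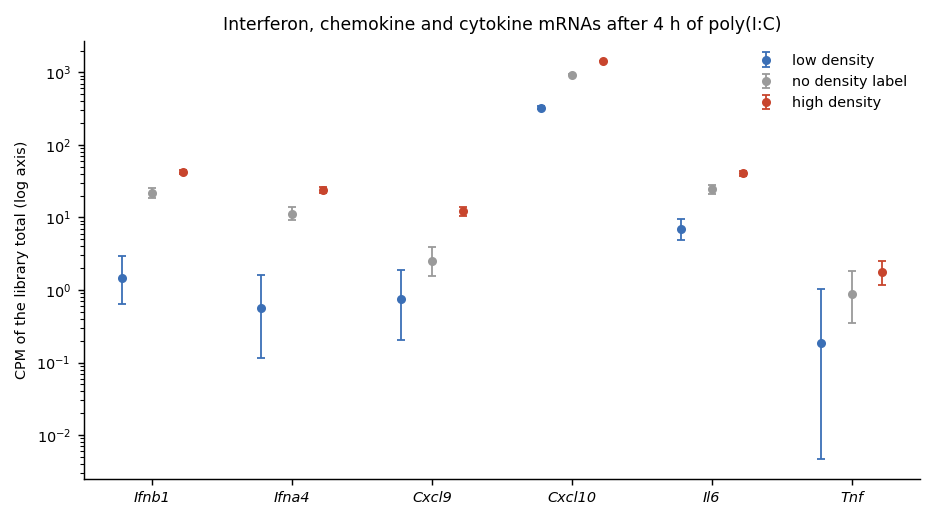
CPM of the library total (log axis) after 4 h of poly(I:C) for 6 interferon, chemokine and cytokine genes at low density, with no density label and at high density, 1 library each; bars are exact 95% Poisson intervals of the counts. For Ifnb1 the points are 1.48, 21.8 and 42.5 CPM.

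Chemokines that draw T cells and natural killer cells moved the same way. Cxcl10 stood at 110, 1471 and 207 CPM at high density against 66.0, 354 and 113 CPM at low density. The poly(I:C) libraries were furthest apart, and the low-density poly(I:C) library was above the untreated high-density one. Its log2 difference over the 3 treatments was 1.27 ± 0.19 (adjusted p = 8.04e-04). Ccl5 was higher by 1.13 ± 0.13 and Cxcl11 by 3.21 ± 0.41, the latter on 20.7 against 2.02 CPM under poly(I:C) and at most 0.303 CPM elsewhere. Cxcl9 had 199 counts at high and 4 at low density under poly(I:C), a ratio of 16.3 (6.26 to 60.3), and was not tested. Of the 9 listed interferons and chemokines 3 passed the filter and all 3 were higher. The number depends on the libraries used: without either untreated library, or either AO library, 6 were higher.

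NF-kB target genes, which encode inflammatory cytokines, chemokines and feedback inhibitors, were higher in 19 of 32 tested and lower in 2, with a median of 0.65. The 2 lower are a share under the 8.41% of all genes tested. Il6, a cytokine of the acute-phase response (chromosome 5, 30013114 to 30019981), stood at 0.743, 41.9 and 2.02 CPM at high and at 0.627, 7.48 and 0.538 CPM at low density. The untreated libraries were close, and the difference lay in the treated ones. Its log2 difference was 2.2 ± 0.29 (adjusted p = 3.30e-04). The monocyte chemokine gene Ccl2 stood at 39.2, 464 and 80 CPM against 11, 108 and 21.2 CPM and so differed in untreated cells too (2.03 ± 0.12). Icam1, the ligand of leukocyte integrins, was higher by 3.0 ± 0.30, and Relb, a subunit of the alternative NF-kB dimer, by 1.08 ± 0.10. Ptgs2, which encodes cyclooxygenase-2, went the other way, with 105, 169 and 197 CPM at high against 264, 294 and 513 CPM at low density (-1.17 ± 0.09, adjusted p = 4.12e-06). Cxcl12 was lower by a smaller step, -0.32 ± 0.09. Of the effector genes 10 of 18 were higher and of the subunits and inhibitors 9 of 14. The count of higher genes was 12 without the low-density poly(I:C) library and 11 without the poly(I:C) libraries. The count of lower genes was 1 with the 6 libraries alone or without either or both of the AO libraries.

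Complement genes belonged to the same side. Of 23 listed only 7 passed the filter, and 5 of these were higher. C1ra, a protease of the C1 complex, stood at 9.7, 11.9 and 7.79 CPM at high density and at 3.29, 2.23 and 2.87 CPM at low density. The groups did not overlap (log2 difference 1.77 ± 0.27, edgeR adjusted p = 8.68e-04), and its partner C1s1 was higher by 2.14 ± 0.35. C3 and C4b were among the 15 genes that the filter removed.

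Poly(I:C) raised interferon-stimulated genes at both densities, and inflammatory genes more at high density. Each response is 1 library against 1, so none was tested and a rise means a log2 difference of at least 1. Among the 68 interferon-stimulated genes 58 rose at high density and 48 at low density, with medians of 1.71 and 1.54, while over all genes 2.8% and 3.17% rose. Irf7 rose by 1.74 at high and 1.93 at low density, and Isg15 by 1.20 and 1.23, so for these the gap between densities was about as wide before as after poly(I:C). Other members rose further at high density, as did Mx1 (4.77 and 2.33), Tlr3 (2.85 and 1.49) and Ifit2 (2.62 and 1.06). In all 51 of the 68 had the larger response at high density and 17 at low density, with a median gap of 0.30 beside 0.01 for all genes. Among NF-kB and inflammatory genes 14 of 32 rose at high and 9 at low density, and 29 of 32 had the larger response at high density and 3 at low density, beside 6299 and 5744 of all 12229 genes. Il6 rose by 5.50 and 3.24, Icam1 by 4.16 and 1.98, and Tnfaip3, the feedback inhibitor A20, by 2.24 and 0.90. In the untreated low-density library Il6 and Icam1 were at 0.627 CPM, near the 0.476 CPM that 3 counts make there. Their low-density responses are therefore uncertain.

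**Figure D4:**
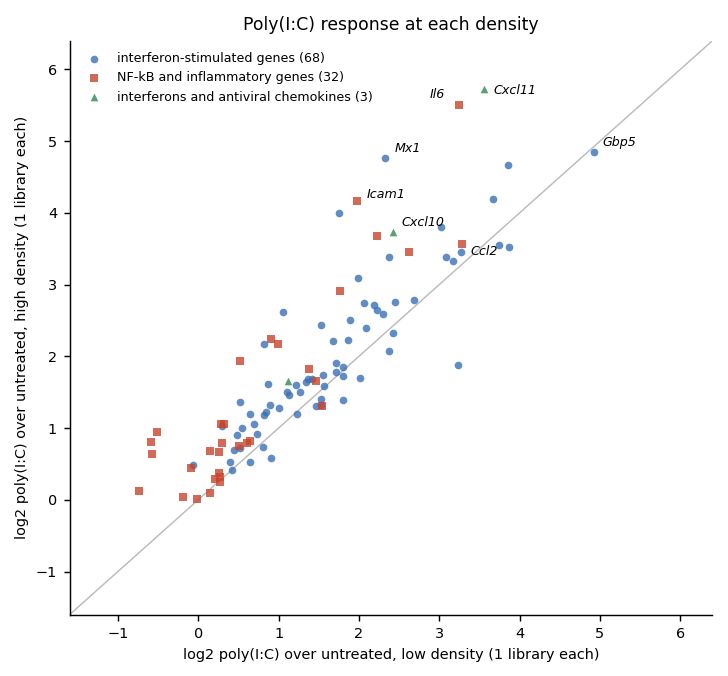
Log2 response to poly(I:C) at low density (horizontal) and high density (vertical) for tested genes of 3 lists, 1 point per gene from 1 library against 1, with the line of equal response. Il6 (3.24 and 5.50) and Icam1 (1.98 and 4.16) lie well above the line and Gbp5 (4.92 and 4.85) close to it. Gbp5 was at 0 CPM in the untreated low-density library, so its response of 4.92 depends on the prior count of 2. Il6 and Icam1 were at 0.627 CPM there, so their low-density responses also rest on few counts.

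AO raised stress genes at both densities. It is known to raise the integrated stress response, in which eIF2 phosphorylation lets ATF4 be translated. Among its 36 genes 11 rose at high and 17 at low density, with medians of 0.81 and 0.98, beside 1.51% and 2.29% of all genes. Ddit3, which encodes CHOP, rose by 2.0 and 1.93. Hmox1, heme oxygenase, which is not among the 36, rose by 2.65 and 2.17. The level of the integrated stress response genes did differ by density. Of the 36, 17 were higher at high density and 0 lower (median 0.28), Ddit3 by 0.63 ± 0.09 and Atf5 by 0.49 ± 0.07. Ddit3 stood at 88.4, 67.7 and 355 CPM at high and at 54.9, 51.2 and 209 CPM at low density, so the rise under AO was larger than the gap between densities. That count fell to 6 without the untreated libraries, and it was 9 to 11 when the untreated low-density library, the untreated high-density library, either poly(I:C) library or all poly(I:C) libraries were left out.

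Several targets of YAP and TEAD were lower at high density. Of 22 genes 10 were lower, 1 was higher and 11 did not pass, with a median of -0.24. Over all genes tested 8.41% were lower and 8.62% higher. Ccn2, a matricellular protein and a standard readout of YAP (chromosome 10, 24595442 to 24598683), stood at 556, 581 and 652 CPM at high density and at 1026, 945 and 1645 CPM at low density. Every low-density library was above every high-density one, and the log2 difference was -0.97 ± 0.09 (adjusted p = 1.75e-05). Ankrd1, a cofactor first known from heart muscle (chromosome 19, 36111961 to 36120099), stood at 89.6, 87.0 and 68.3 CPM against 170, 153 and 112 CPM (-0.82 ± 0.06, adjusted p = 3.89e-06). Crim1 and Ccn1 were lower by -0.75 ± 0.07 and -0.59 ± 0.10, without overlap. Igfbp3, a carrier of insulin-like growth factors, was higher by 1.21 ± 0.20.

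Of the Hippo pathway's own 24 genes 7 were lower and 2 higher (median -0.09). The 2 higher genes are a share near the 8.62% of all genes tested. Yap1, the co-activator, stood at 204, 164 and 193 CPM against 194, 144 and 167 CPM and did not pass (0.15 ± 0.06, adjusted p = 0.116). Tead1, its DNA-binding partner, was lower by -0.32 ± 0.06, the cofactor gene Vgll3 by -0.64 ± 0.10 and the scaffold gene Wwc1 (KIBRA) by -0.58 ± 0.07. The 2 higher genes were Wwtr1 (TAZ, 0.26 ± 0.08) and Amotl1, chosen after their values were seen, and 0 or 1 gene was higher under RLE scaling, DESeq2, the 6 libraries alone, thinning or with any library or treatment left out. The lower count was 4 without the untreated libraries.

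Of the YAP and TEAD targets in the promoter table, 8 of 17 (47.1%) held GGAATG, the TEAD core, on either strand, beside 14.1% of all tested genes, 16% of the lower and 16.3% of the higher genes. Windows of 130 bases before the RefSeq start show it in capitals, on either strand, for 3 targets picked because they hold it there, while those of Axl and Wwc1, also lower, held 0 matches: chr3:145649986-145650115 for Ccn1 (minus strand), chr19:36119845-36119974 for Ankrd1 (minus strand) and chr17:78200118-78200247 for Crim1.
Ccn1: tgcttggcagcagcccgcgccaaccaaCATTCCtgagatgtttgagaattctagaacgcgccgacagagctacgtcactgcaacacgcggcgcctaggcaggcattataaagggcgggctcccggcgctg
Ankrd1: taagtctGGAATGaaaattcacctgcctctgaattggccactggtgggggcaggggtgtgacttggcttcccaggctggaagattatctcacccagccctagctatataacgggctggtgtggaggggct
Crim1: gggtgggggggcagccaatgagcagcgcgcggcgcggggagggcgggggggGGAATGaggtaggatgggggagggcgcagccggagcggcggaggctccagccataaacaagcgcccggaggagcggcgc

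Actin cytoskeleton and SRF target genes were lower at high density. Of 22 genes 18 were lower and 0 higher, with a median of -0.43. Tagln, which encodes the actin-bundling protein transgelin (chromosome 9, 45929619 to 45936058), stood at 882, 990 and 709 CPM at high and at 1547, 1835 and 1164 CPM at low density, without overlap (-0.81 ± 0.05, adjusted p = 3.48e-07). Acta2, smooth muscle actin and the marker of contractile myofibroblasts, stood at 1143, 1312 and 788 CPM against 1785, 2499 and 1294 CPM. There the low-density AO library fell just under the high-density poly(I:C) library, so the groups overlapped (-0.76 ± 0.05, adjusted p = 1.79e-06). Calponin, Cnn1, was lower by -1.02 ± 0.11, filamin A, Flna, by -0.61 ± 0.07, tropomyosin genes Tpm4 and Tpm2 by -0.42 ± 0.04 and -0.48 ± 0.05, and the cytoplasmic actin genes Actb and Actg1 by -0.50 ± 0.08 and -0.44 ± 0.05. Srf itself did not pass (-0.23 ± 0.08, adjusted p = 0.0723). Of 14 tubulin and microtubule genes 7 were lower and 0 higher (median -0.28), Tuba1a by -0.40 ± 0.05, and 3 were lower without the untreated libraries. The caveolar coat gene Cav1, at 192, 204 and 142 CPM against 320, 378 and 271 CPM, was lower by -0.85 ± 0.06 without overlap.

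Extracellular matrix genes went in both directions. Of 38 tested matrix genes 15 were higher and 6 lower, with a median of 0.13. Col3a1, the collagen of loose connective tissue (chromosome 1, 45311538 to 45349706), stood at 568, 655 and 225 CPM at high against 180, 219 and 85.9 CPM at low density (1.55 ± 0.10, adjusted p = 4.36e-07). Col1a1, the main bone and skin collagen, stood at 1356, 1951 and 801 CPM against 1157, 1978 and 842 CPM and did not pass (0.05 ± 0.06, adjusted p = 0.675). Mgp, matrix Gla protein, an inhibitor of calcification, stood at 165, 169 and 127 CPM against 54.7, 65.5 and 38.9 CPM (1.55 ± 0.09), and Ogn, the proteoglycan osteoglycin, was higher by 1.94 ± 0.11. Thbs1, thrombospondin-1, was lower by -0.98 ± 0.10. Without the untreated low-density library 8 matrix genes were higher, as without all untreated libraries. Leaving out the untreated libraries, the high-density AO library or all AO libraries left 3 lower.

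Proteases and their inhibitors also went both ways, with 9 of 21 higher and 5 lower. Serpine2, protease nexin-1, stood at 27.2, 31.1 and 23.4 CPM at high against 11.5, 13.1 and 11.8 CPM at low density, without overlap (1.16 ± 0.11). Adamts12, a matrix protease, was lower by -0.75 ± 0.13. Mmp2, gelatinase A, was higher by 0.45 ± 0.05. The count of lower genes was 2 without the poly(I:C) libraries and 3 without the high-density poly(I:C), the high-density AO, the low-density AO or all AO libraries.

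**Figure D5:**
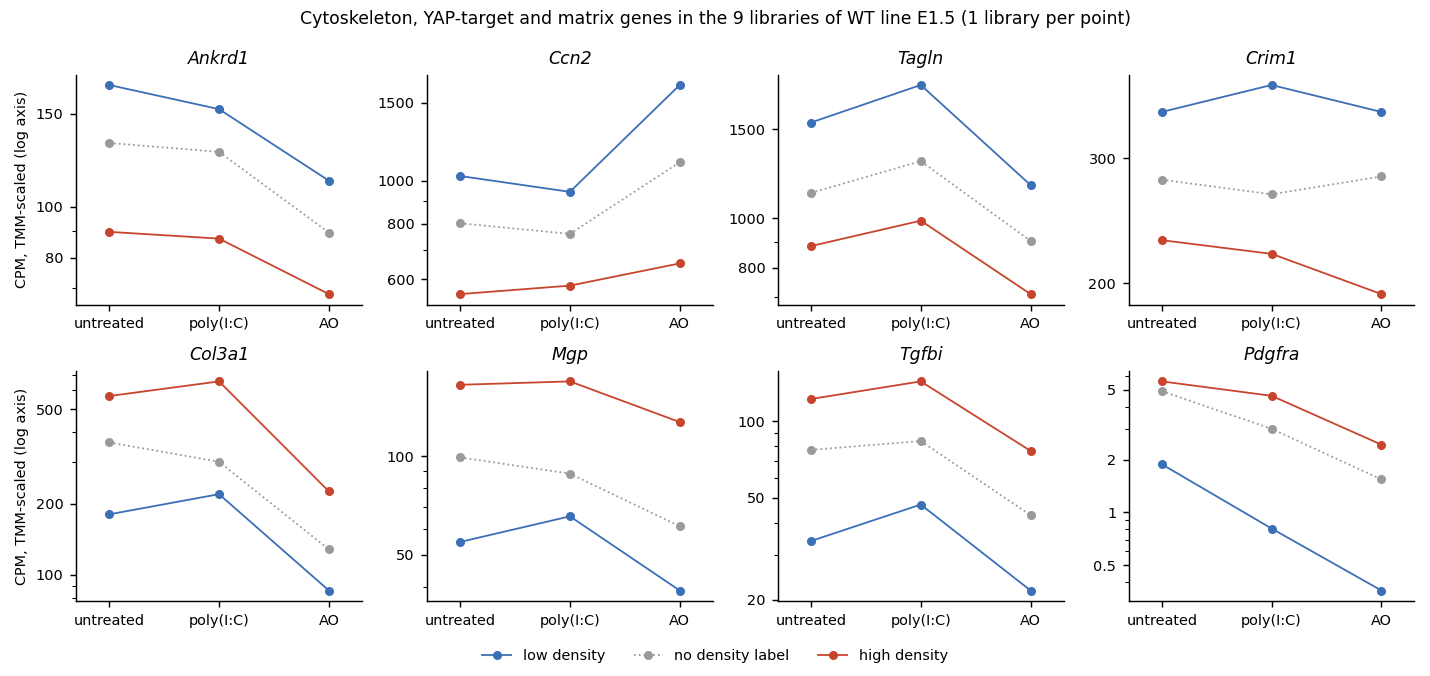
CPM (log axis) of 8 cytoskeleton, YAP-target and matrix genes in each library of line E1.5 under 3 treatments, with colours for low density, no density label and high density. Ankrd1, Ccn2, Tagln and Crim1 are highest at low density and Col3a1, Mgp, Tgfbi and Pdgfra highest at high density at each treatment.

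Growth factor genes and their receptors included 12 of 32 higher and 4 lower (median 0.25). Over all genes tested 8.62% were higher and 8.41% lower, so the 4 lower are a share not far above that of all genes. Pdgfra, the PDGF receptor of mesenchymal progenitors, stood at 5.57, 4.61 and 2.43 CPM at high and at 1.88, 0.809 and 0.359 CPM at low density (2.04 ± 0.31, adjusted p = 8.76e-04), a large difference at a low level. Igf2 stood at 161, 199 and 122 CPM against 85.0, 122 and 79.2 CPM (0.75 ± 0.08), and the binding protein genes Igfbp4 and Igfbp5 were higher by 0.95 ± 0.08 and 1.10 ± 0.11. The HGF receptor gene Met was lower by -0.69 ± 0.08. Among TGF-beta genes 6 of 18 were higher and 4 lower (median -0.05). Tgfbi, an adhesive matrix protein named for its induction by TGF-beta, stood at 122, 143 and 76.4 CPM against 33.9, 47.1 and 21.7 CPM (1.75 ± 0.08), whereas Inhba, the activin A subunit, was lower by -0.81 ± 0.13. The 4 lower TGF-beta genes became 2 with the 6 libraries alone, without the untreated or the AO libraries, or without either AO library. Of 17 BMP genes 6 were lower and 0 higher (median -0.23), with Id1, a BMP target, lower by -0.55 ± 0.11. Without the untreated or without the AO libraries 3 BMP genes were lower.

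Of the genes for cell-cell adhesion and gap junctions 10 of 27 were lower and 4 higher (median -0.04). Over all genes tested 8.41% were lower and 8.62% higher, so the 4 higher are a share not far above that of all genes. Cdh2, N-cadherin, the main cadherin of fibroblast contacts, stood at 186, 186 and 165 CPM at high against 239, 268 and 270 CPM at low density (-0.53 ± 0.07, adjusted p = 4.29e-04). Cdh11, the mesenchymal cadherin, was higher by 0.38 ± 0.10, with 176 against 175 CPM under AO. Vcam1, an adhesion molecule for leukocytes, was higher by 1.26 ± 0.19, and it stood at 311 against 84.2 CPM under poly(I:C) and 81.0 against 58.8 CPM untreated. Nectin3 and the fibroblast surface gene Thy1 were lower by -0.44 ± 0.08 and -0.32 ± 0.09. The lower count was 4 without the low-density poly(I:C) library, 5 without the high-density poly(I:C) or AO library or all poly(I:C) or AO libraries, and 6 without the untreated high-density library. The higher count was 2 without the high-density poly(I:C) library and 7 with no filter.

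Genes of mitosis were modestly lower at high density. Of 33 genes for G2 and mitosis 15 were lower and 0 higher, with a median of -0.18. Prc1, which organises the midzone of the spindle, stood at 267, 264 and 236 CPM at high against 346, 355 and 296 CPM at low density (-0.38 ± 0.05, adjusted p = 3.79e-04). Birc5 (survivin) and Foxm1, the transcription factor of the mitotic programme, were lower by -0.39 ± 0.06 and -0.37 ± 0.06. The proliferation marker Mki67 was lower by -0.44 ± 0.10, with 376 against 407 CPM untreated, 399 against 608 CPM under poly(I:C) and 205 against 313 CPM under AO. Of 33 genes of DNA replication 6 were higher and 2 lower (median 0.06), and the lower ones are a share under the 8.41% of all genes tested. Mcm6, a subunit of the replicative helicase, was higher by 0.31 ± 0.05, while Rrm1 and Rrm2, the ribonucleotide reductase subunits, were lower by -0.36 ± 0.05 and -0.43 ± 0.07. Among cell cycle inhibitors and quiescence genes 9 of 29 were higher and 0 lower (median 0.22), including Cdkn2a (0.40 ± 0.06), the growth-arrest gene Gas1 (0.71 ± 0.10), Cdkn1a, which encodes p21 (0.43 ± 0.09), and Cdkn2b (0.49 ± 0.09). Cdkn1b, which encodes p27, did not pass (-0.02 ± 0.09, adjusted p = 0.897). The mitosis count was 6 without the untreated high-density library or all untreated libraries, 8 without the high-density poly(I:C) library or all poly(I:C) libraries, and 9 without the low-density poly(I:C) library. For replication, 2 or 3 genes were higher without the high-density poly(I:C), the low-density poly(I:C), either AO library or any treatment's libraries, and 1 was lower without the untreated libraries.

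Ribosome biogenesis genes were lower too. Of 26 nucleolar and Myc-controlled genes 16 were lower and 0 higher, with a median of -0.24. Ncl, nucleolin, stood at 1980, 2265 and 2553 CPM at high against 2769, 3298 and 2931 CPM at low density (-0.41 ± 0.06, adjusted p = 7.09e-04), and Odc1, the first enzyme of polyamine synthesis, was lower by -0.44 ± 0.06. Their median difference was -0.35 without treatment, -0.32 with poly(I:C) and -0.08 with AO, and 4 were lower without the untreated libraries. The count was 9 or 10 without the high-density untreated, the low-density untreated, either poly(I:C) library or all poly(I:C) libraries. Of 13 mRNAs encoded in mitochondrial DNA 9 were lower and 0 higher (median -0.38), led by mt-Nd3 (-0.93 ± 0.09), while mt-Co1 did not pass (-0.03 ± 0.05, adjusted p = 0.686). Of 35 nuclear genes for oxidative phosphorylation 5 were lower (median -0.14), and 0 to 3 were lower with the 6 libraries alone or without the untreated libraries, either untreated or poly(I:C) library, or all poly(I:C) or AO libraries. Of 21 glycolysis genes 7 were lower, among them Eno1 (-0.41 ± 0.05) and Pkm (-0.31 ± 0.04), and 2, Slc16a3 and Eno2, were higher. The 2 higher are a share near the 8.62% of all genes tested. With DESeq2, the 6 libraries alone or any library or treatment left out, 0 or 1 glycolysis gene was higher. The glucose transporter gene Slc2a1 did not pass (0.05 ± 0.07, adjusted p = 0.705).

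Lysosomal and sterol genes were higher. Of 26 lysosomal genes 15 were higher and of 17 autophagy genes 4, with 0 lower in either (median of both 0.15). Grn, progranulin, stood at 251, 254 and 256 CPM at high against 165, 185 and 179 CPM at low density (0.53 ± 0.06, adjusted p = 5.56e-05), and Lamp2 and Ctsb, a lysosomal membrane protein and a cathepsin, were higher by 0.43 ± 0.05 and 0.48 ± 0.05. Sqstm1, the autophagy receptor p62 that TBK1 phosphorylates, was higher by 0.37 ± 0.06, with 1206 against 821 CPM under AO. These 19 calls became 11 without the untreated low-density library or all untreated libraries, and 12 with DESeq2, without the low-density poly(I:C) library or without all poly(I:C) libraries. Of 25 genes for cholesterol synthesis and uptake 14 were higher and 0 lower (median 0.25). Hmgcs1, which makes HMG-CoA, stood at 423, 812 and 340 CPM against 307, 589 and 228 CPM (0.50 ± 0.06, edgeR adjusted p = 9.72e-05). The sterol count was 8 without the high-density poly(I:C) library, all poly(I:C) libraries or all AO libraries.

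Other signalling lists held smaller or mixed differences. Of 18 Wnt genes 7 were higher and 2 lower (median 0.44), with the secreted antagonist gene Dkk2 lower at 37.7, 37.4 and 20.2 CPM against 73.4, 71.8 and 49.1 CPM (-1.05 ± 0.09, adjusted p = 5.36e-06). The Wnt amplifier gene Rspo3 was higher by 0.89 ± 0.15. The 2 lower Wnt genes are a share near the 8.41% of all genes tested. The 7 became 4 after thinning or without the high-density AO, low-density untreated, low-density poly(I:C) or all untreated libraries, 3 without the high-density poly(I:C) library and 2 without all poly(I:C) libraries. The 2 lower became 1 without the high-density poly(I:C), all poly(I:C) or all AO libraries. Notch3, a receptor of mural cells, was higher by 1.09 ± 0.16 without overlap, at 12.9, 10.9 and 8.29 CPM against 5.49, 5.87 and 3.77 CPM. Of 28 immediate-early genes, which answer growth signals within the hour, 6 were higher and 3 lower (median 0.19). The 3 lower are a share near the 8.41% of all genes tested. Egr1, a zinc finger factor, stood at 178, 710 and 382 CPM against 105, 459 and 147 CPM (0.94 ± 0.15), and Klf6 was lower by -0.57 ± 0.11. With no filter 10 were higher, and 5 were lower with no filter, with RLE scaling or without the low-density poly(I:C) library. Of 16 heat shock genes 6 were lower and 0 higher (median -0.07), Hspb1 by -0.64 ± 0.12, and this became 3 without the untreated libraries, 2 without the high-density poly(I:C) library and 1 without all poly(I:C) libraries. Spp1, osteopontin, a secreted phosphoprotein among the osteoblast markers, stood at 1131, 1307 and 1083 CPM against 423, 436 and 368 CPM (1.52 ± 0.07, edgeR adjusted p = 3.55e-08). Of the 3 osteoblast markers tested it alone was higher: Runx2 was lower (log2 difference -0.40) and Alpl did not pass. The osteoblast genes Bglap and Ibsp were at 3 counts or fewer in all 6 libraries. For Hedgehog signalling 2 of 9 tested genes were higher and 0 lower, and for hypoxia 5 of 20 and 1. For the unfolded protein response 3 of 24 were higher and 3 lower, and for NRF2 4 of 21 and 0. For p53 the counts were 4 of 24 and 3, and for fatty acids 4 of 21 and 1. Over all genes tested 8.62% were higher and 8.41% lower. In the other settings with treatment in the model, the higher counts of these 6 lists fell as low as 2, 3, 0, 1, 2 and 1.

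Among the 15 largest differences per direction (genes averaging 1 or more log2 CPM), the higher genes outside the lists were Gm4951, a predicted interferon-inducible GTPase (3.52 ± 0.23), the inflammatory caspase gene Casp4 (3.22 ± 0.29) and Dhrs3, a retinaldehyde reductase (3.11 ± 0.31, with 11.8, 12 and 3.19 CPM at high against 1.25, 1.82 and 0.179 CPM at low density). On the lower side Cyp1a1, a cytochrome P450 under the aryl hydrocarbon receptor, stood at 0.495, 0.561 and 1.77 CPM at high against 2.98, 4.65 and 12.6 CPM at low density (-2.8 ± 0.28, adjusted p = 3.21e-05). Lrp2, megalin, an endocytic receptor, stood at 4.46, 4.74 and 3.09 CPM against 13, 15.4 and 18.1 CPM (-1.91 ± 0.21). Tll1, a protease that processes procollagens, was lower by -1.37 ± 0.12 and Acan, the cartilage proteoglycan aggrecan, by -1.33 ± 0.25. Shank2, Siglecg, Ripor2, Alkal1, Klra4, Palm2, Amd2, Gm12669 and Gm10110 completed the lower side, between -1.23 and -1.88. AY036118, annotated as a long non-coding RNA, was listed at 0 in all 3 high-density libraries and had 482 counts over the 3 low-density ones. It was also listed at 0 in 26 of all 36 libraries, and a 0 among expected counts can be a failed estimate, so no fold is given and whether the RNA itself differed was not tested.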

How the data were processed

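RNA was sequenced from a TruSeq Stranded mRNA preparation, per the labels' protocols. The authors deposited 1 table of expected counts per library, which are estimates and can hold decimals, made with STAR and RSEM on mm10 per the submitters' processing notes; their versions and strand setting are not given in these sources. Between 7.27% and 13.4% of values were not whole in the 9 libraries of line E1.5, and all were rounded. Of 49585 genes, 49326 matched GENCODE vM21 (GRCm38), which gave names and coordinates.

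The 9 libraries were fitted in edgeR 4.0.16 (R 4.3.3): TMM, filterByExpr (minimum count 10, minimum total 15), terms for density and treatment, 4 residual degrees of freedom, quasi-likelihood F test of high against low, Benjamini-Hochberg adjusted p under 0.05, no fold limit. Errors are SE. CPM values are TMM-scaled, except those given beside counts and the summed levels, which use library totals. Treatment responses are 1 library against 1 (log2 CPM, prior count 2). Treatment is the pairing term of the model. Deviations from the density means correlated by 0.566 to 0.668 across genes between high- and low-density libraries of the same treatment. These positive values show that treatments moved genes alike at both densities. Between different treatments the values were -0.517 to -0.159. Centring 3 libraries on their mean pushes these values below 0, so the contrast is no test of the pairing. No pair differed by as little as sampling noise (chi-square per degree of freedom 3.78 to 20.3). Intervals and floors cover counting error only.

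Named were the 15 largest differences per direction (mean log2 CPM at least 1, same direction in all treatments), 4 genes per list by smallest p, and a short hand-picked set; other list members named were chosen after their values were seen. Members and all 36 gene lists and 11 marker lists were chosen with earlier results of these data known. Alternatives were RLE factors, no filter, DESeq2 1.42.0, no treatment term, the 6 libraries alone, thinning to 5213079 counts, and leaving out libraries and treatments in turn. Some genes of the lists are counted but not reported here by name.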

Additional observations from a re-analysis of the deposited data

Results flagged for a closer look

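For 9 genes averaging 1 or more log2 CPM, a treatment moved the level up at 1 density and down at the other, each by at least 2-fold; every response is 1 library against 1, and the difference was not tested. Under poly(I:C) the log2 response at high density minus that at low density was 8.45 for Tmem254a (2.09 and -6.36), 5.28 for Zfp82, 3.98 for Gm26778, 2.64 for Gm15387, -2.48 for Gm14117, -2.46 for Zfp993 and -5.46 for Entpd4b. Under AO it was 3.81 for Pcdhgc4 and -3.49 for Gm4767. Tmem254a and Entpd4b have near-identical copies among which reads can be split, so their values are uncertain.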

How the results depend on the processing

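With no replicate block, that is, without the pairing by treatment, 31 genes passed in place of 2083, 19 higher and 12 lower. DESeq2 called 683 higher genes in place of 1054; the cause of either change was not tested. Leaving out 1 library or 1 treatment gave 1052 to 1867 passing genes, 614 to 904 higher and 436 to 963 lower. The total was 1340 without the untreated high-density library, 1193 without the high-density poly(I:C) library, 1330 without the low-density poly(I:C) library, 1052 without the untreated libraries and 1142 without the poly(I:C) libraries; these fits have fewer samples. It was 2095 with RLE factors, 2550 with no filter, 1517 with DESeq2, 1617 with the 6 libraries alone and 1771 after thinning. None of the 2083 genes tested again changed sign in any of these fits. The counts of responding genes stayed within 1.5 times under a prior count of 0.5 and after thinning. The depth of the low-density libraries limits what can be seen of rare mRNAs, since 3 counts made 0.476 to 0.556 CPM.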

Other observations

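Genes of 2 further groups were looked up after Cyp1a1 and Dhrs3 had been seen among the largest differences, so the choice followed the data. Of 9 genes linked to the aryl hydrocarbon receptor, a sensor of planar aromatic ligands, 6 were tested and 4 were lower at high density, beside 8.41% of all genes tested: Cyp1a1, which prompted the choice, Ahrr, the receptor's repressor (12.1, 10.8 and 12 CPM at high against 25.4, 20.8 and 33.9 CPM at low density, -1.19 ± 0.12), Tiparp (-0.96 ± 0.10) and Cyp1b1 (-0.82 ± 0.06). All 4 were lower at high density under each of the 3 treatments. Nqo1 and Ahr itself did not pass (-0.25 ± 0.10 and -0.15 ± 0.10, edgeR adjusted p = 0.122 and 0.373). Ugt1a6a, which failed the filter on low counts, stood the other way, at 1.41, 2.0 and 1.56 CPM of the library total at high against 0.634, 0.742 and 0.532 CPM at low density.

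Of 13 genes of retinoid metabolism and signalling 11 were tested and 6 were higher, beside 8.62% of all genes tested, among them Dhrs3, Rarb, the receptor gene that retinoic acid induces (15.6, 18.1 and 10.1 CPM against 3.45, 6.47 and 3.05 CPM, 1.78 ± 0.17), Crabp2 (1.06 ± 0.10), Rdh10 (0.77 ± 0.15) and Rarg (0.41 ± 0.08). Rara, Cyp26a1, Cyp26b1, Crabp1 and Aldh1a2 did not pass.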
